A study of Mus musculus with 3 samples.

Results

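A small fraction of CD4+ T cells carried transcripts of 3 S-phase genes 24 h after antibody stimulation while staying under a limit for transcripts of 5 G2 and mitosis genes. These cells, called S-phase gene cells here, were taken from the stimulated WT and stimulated IFT20-KO libraries. A cell was counted when it had 4056 or more UMIs (unique molecular identifiers, 1 per captured RNA molecule), under 15% mitochondrial UMIs, at least 3 UMIs of *Rrm2*, *Pclaf* and *Esco2* together (the first sum), and fewer than 5 UMIs of *Mki67*, *Top2a*, *Cdk1*, *Birc5* and *Ccnb2* together (the second sum). The rule found 165 such cells in the WT library and 240 in the KO library, 405 of the 14846 cells that passed the filters in those libraries. They were compared within each library with cells in which both sums were 0, called comparison cells, of which there were 4604 in WT and 3224 in KO.

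Splenic naïve CD4+ T cells of young male C57BL/6 mice were enriched with magnetic beads and sorted as 7AAD-CD3+CD4+ cells. Each of the 3 groups was 1 single-cell RNA sequencing library. Unstimulated WT cells came from Ift20 f/f mice and received DPBS only, and stimulated WT cells came from Ift20 f/f mice and received 1 µg/mL anti-CD3 and 1 µg/mL anti-CD28 for 24 h. Stimulated IFT20-KO cells came from Ift20 f/f CD4 cre mice and received the same antibodies. All groups carried the floxed *Ift20* alleles, and only the KO mice carried Cre, which the *Cd4* promoter drives in T cells. How many mice made up a library is not given in the sources used here. With 1 library per group there is no replicate check, no test was made between conditions, and genotype cannot be told apart from library. Every interval is a 95% interval for counting error alone.

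A naïve T cell rests outside the cell cycle and enters it after its receptor and CD28 are engaged together. In late G1 the E2F transcription factors switch on the genes for loading the MCM helicase at replication origins, for making deoxynucleotides and for copying DNA. DNA is then copied once in S phase, and the genes of chromosome condensation and mitosis come on later, in G2. IFT20 is a protein of intraflagellar transport, the traffic that builds cilia, and in T cells, which have no cilium, it takes part in vesicle traffic towards the immune synapse.

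S-phase gene cells made up 2.17% of the filtered cells of stimulated WT (1.85 to 2.52%, exact Clopper-Pearson) and 3.31% of stimulated IFT20-KO (2.91 to 3.75%). In the unstimulated library 1 cell of 5263 met the rule, 0.0190% (0.000481 to 0.106%), with 5 UMIs of *Pclaf* and 2 of *Top2a*. The rule counts raw UMIs, and the libraries differed in depth, with a median of 13952 UMIs per filtered cell in WT, 11716 in KO and 5233 in the unstimulated library. Of the KO barcodes 6688 of 13932 fell below the UMI minimum, against 2713 of 10320 in WT. With every cell thinned to 4056 UMIs before the rule was applied, the shares were 1.97% in WT (1.67 to 2.31%) and 2.53% in KO (2.18 to 2.91%), with 1 cell again in the unstimulated library. The WT and KO intervals did not overlap on raw counts and did overlap on thinned counts. They hold only the counting error of cells within 1 library each and do not test genotype. Comparison cells made up 60.6% of WT, 44.5% of KO and 96.4% of unstimulated cells, or 81.2%, 69.4% and 97.5% after thinning. Cells with a second sum of 5 or more, called G2/M-gene cells here, numbered 411 in WT (5.41%), 370 in KO (5.11%) and 6 in the unstimulated library. After thinning they made up 0.868% of WT and 1.05% of KO.

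S-phase gene cells were deeper than the comparison cells of their own library. In WT the median was 19185 UMIs against 13084.5 in comparison cells and 20201 in G2/M-gene cells, and in KO it was 14897.5 against 10996 and 17263.5. The median number of genes per S-phase gene cell was 4005 in WT and 3506.5 in KO, against 3140.5 and 2906 in comparison cells. Mitochondrial shares stood close together, with medians of 1.24% and 1.25% in WT and 1.08% and 1.06% in KO for S-phase gene and comparison cells. All levels below are counts per 1000000 UMIs of the cell group (CPM), which takes out the total. The median log2 ratio of replication genes, described below, was 0.98 in WT and 0.73 in KO. It was 0.94 and 0.74 with comparison cells weighted to the depth of the S-phase gene cells, 0.98 and 0.81 with the cells of both groups thinned to equal depth, and 1.24 and 1.13 with the rule itself applied to thinned counts. Cells holding 2 cells' RNA were not searched for. The WT and KO libraries shared 207 barcodes, 79 of them among filtered cells, and no S-phase gene cell was shared.

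**Figure D1:**
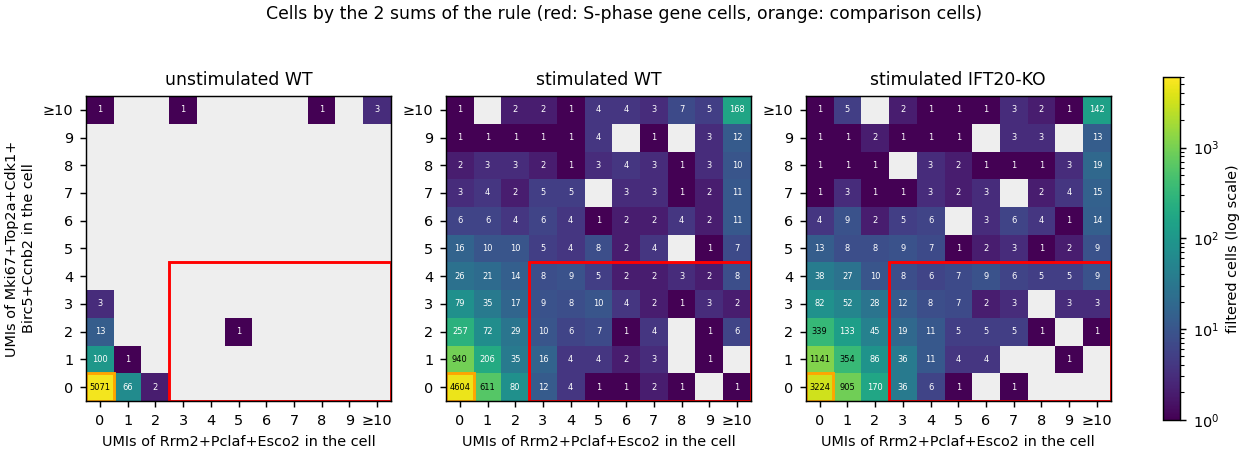
Number of filtered cells (colour, log scale) at each pair of first sum (x axis, UMIs of *Rrm2*, *Pclaf* and *Esco2*) and second sum (y axis, UMIs of *Mki67*, *Top2a*, *Cdk1*, *Birc5* and *Ccnb2*) in the 3 libraries, with sums of 10 or more pooled in the last row or column. The red box holds the S-phase gene cells (1, 165 and 240) and the orange box the comparison cells (5071, 4604 and 3224), and no gap separates the red box from the cells around it.

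The cells were chosen by measured values, the raw UMIs of 8 genes, so these genes describe them but are no result. *Rrm2*, the small subunit of ribonucleotide reductase, stood at 132 CPM in WT S-phase gene cells and 140 in KO. *Pclaf*, a PCNA-binding protein, stood at 126 and 145, and *Esco2*, which acetylates cohesin during S phase, at 17.6 and 20.7. All 3 were higher in G2/M-gene cells, at 296, 386 and 48.6 in WT and 331, 431 and 60.6 in KO. Of the genes held low by the rule, *Top2a*, a topoisomerase that untangles DNA, stood at 59.2 in WT and 67.5 in KO, and *Cdk1*, the kinase of mitotic entry, at 35.2 and 32.0. *Birc5* stood at 14.3 and 16.7, the proliferation marker *Mki67* at 4.25 and 13.4, and the mitotic cyclin *Ccnb2* at 0.30 and 0.54. The usual S-phase gene cell had UMIs of both *Rrm2* and *Pclaf* but not *Esco2*, which was so in 83 WT and 121 KO cells, while 32 and 44 had UMIs of all 3.

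Many cells sat near both thresholds. The first sum was exactly 3 in 55 WT and 111 KO S-phase gene cells, and 175 WT and 339 KO cells with a first sum of 2 fell just outside. The second sum was exactly 4 in 39 WT and 55 KO cells, and 31 and 34 cells with a second sum of 5 fell just outside. Cells just inside the first threshold had medians of 18801 UMIs in WT and 14265 in KO, and those just outside had 16599 and 13281. Of all cells with a first sum of 3 or more, 336 of 501 in WT and 308 of 548 in KO had a second sum of 5 or more and were therefore not S-phase gene cells.

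Each gene of the first sum was also read in cells chosen without it, so that its own counts took no part in the choice. With *Rrm2* left out of the rule, 79 WT cells remained and held *Rrm2* at 134 CPM against 6.89 in their comparison cells, a log2 ratio of 4.28 (4.03 to 4.52). In KO, 103 cells held 110 against 14.0, a log2 ratio of 2.97 (2.73 to 3.21). *Pclaf*, left out in turn, stood at 95.7 against 3.68 in WT (log2 4.70, 4.42 to 4.98) and 112 against 10.9 in KO (log2 3.36, 3.12 to 3.6). *Esco2* stood at 15.2 against 0.520 in WT and 14.0 against 1.88 in KO. Each of the 3 genes was thus higher in cells chosen without it than in their comparison cells, in both libraries. The KO comparison cells held more of each gene than the WT ones. The limits on the second sum still differed between the chosen cells and the comparison cells, so these ratios reflect both sums. Whether the 3 genes went together among cells with the same second sum was not tested.

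Across all genes outside the rule with enough UMIs, 811 of 11923 in WT (6.8%) were at least 2-fold higher in S-phase gene cells than in comparison cells and 313 (2.63%) at least 2-fold lower. In KO the counts were 562 of 11501 (4.89%) and 266 (2.31%). Among genes at 50 or more CPM, 57 of 2876 in WT (1.98%) and 34 of 2841 in KO (1.2%) were 2-fold higher and none was 2-fold lower. The median log2 ratio over all genes was 0.04 in WT and 0.03 in KO. The counts depend on the scale. In UMIs per cell, not divided by the total, 2047 genes in WT and 1297 in KO were 2-fold higher, and with at least 200 UMIs per gene 186 and 109. The shares on the CPM scale are the background for the counts below. Rule and lists came from the same libraries, so the counts are descriptions.

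Genes of origin licensing, which load the MCM2-7 helicase onto DNA before S phase, were higher in S-phase gene cells, with a median log2 ratio of 0.90 in WT and 0.67 in KO over 16 genes. Of these, 7 in WT and 3 in KO were at least 2-fold higher and none was 2-fold lower. *Cdc6*, the ATPase that helps place the helicase at origins, had the largest mean ratio among genes at 50 or more CPM in S-phase gene or comparison cells, a limit it passed in the S-phase gene cells alone. It stood at 79.9 CPM in WT S-phase gene cells (70.5 to 90.1) against 5.45 in comparison cells and 0.669 in unstimulated cells, a log2 ratio of 3.87 (3.64 to 4.11). In KO it stood at 67.2 (59.1 to 76.1) against 9.96, a log2 ratio of 2.75 (2.52 to 2.99). *Mcm5*, a helicase subunit, stood at 339 against 161 in WT (log2 1.07, 0.98 to 1.16) and 309 against 182 in KO (log2 0.76, 0.67 to 0.85), with 16.7 in unstimulated cells. *Mcm6* stood at 504 against 292 in WT and 520 against 336 in KO. Geminin (*Gmnn*), which blocks a second round of licensing, stood at 169 against 46.5 in WT and 156 against 57.3 in KO. The origin recognition subunit *Orc5* had log2 ratios of −0.04 and −0.07, with intervals that spanned 0. *Cdc6*, *Mcm5* and *Mcm6* were thus all above their unstimulated level (49.1 for *Mcm6*) already in comparison cells.

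At equal depth the same order held for the share of cells with a UMI. At 4056 UMIs per cell, *Cdc6* was seen in 27.3% of S-phase gene cells and 1.91% of comparison cells in WT, in 27.1% and 4.31% in KO, and in 0.095% of unstimulated cells. Before thinning these shares were 70.3%, 6.39%, 58.3%, 10.0% and 0.19%. *Mcm5* was seen at equal depth in 75.2% and 43.3% in WT, 72.5% and 48.9% in KO and 6.21% in unstimulated cells. As a gauge of free RNA, the B cell receptor gene *Cd79a* was read at that depth. It was seen in 0 of the S-phase gene cells of either library (upper limits 2.21% in WT and 1.53% in KO). In comparison cells it was seen in 0.0869% in WT and 0.124% in KO, so the S-phase gene cells are too few to tell a difference. Before thinning it was seen in 0.606% of WT and 0.417% of KO S-phase gene cells.

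Promoter sequence was read around the start sites of these genes, since E2F factors are known to drive many of them. The 8-base words TTTCCCGC, TTTCGCGC, TTTGCCGC and TTTGGCGC, which match the known E2F site, were searched on both strands in RefSeq windows (build GRCm38.p6) from 250 bases before to 50 bases after each start. At least 1 word was found for 704 of 27025 genes (2.605%) and in 744 of 32851 windows (2.26%). It was found for 9 of the 14 licensing genes with a window, namely *Cdc6*, *Cdt1*, *Mcm3*, *Mcm5*, *Mcm6*, *Mcm7*, *Mcmbp*, *Orc1* and *Orc3*. Of the first-sum genes, *Pclaf* held a word and *Rrm2* did not, and *Esco2* was not searched. The licensing genes *Gmnn* and *Orc5*, which also have values above, were not among the 9. Shown are *Pclaf*, from the rule, and *Cdc6*, *Mcm5* and *Mcm6*, picked because they have values above and hold a word. Each runs from 200 bases before to 10 bases after the start, with the words in capitals.
Pclaf: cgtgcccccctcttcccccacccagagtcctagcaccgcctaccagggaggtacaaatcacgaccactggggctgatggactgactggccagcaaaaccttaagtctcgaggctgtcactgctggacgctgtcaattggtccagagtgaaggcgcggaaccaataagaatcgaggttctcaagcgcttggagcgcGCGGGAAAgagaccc
Cdc6: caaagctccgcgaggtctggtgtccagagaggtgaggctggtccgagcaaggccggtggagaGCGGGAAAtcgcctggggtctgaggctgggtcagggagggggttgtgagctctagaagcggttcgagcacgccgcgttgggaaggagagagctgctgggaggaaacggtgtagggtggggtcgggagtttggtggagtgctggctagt
Mcm5: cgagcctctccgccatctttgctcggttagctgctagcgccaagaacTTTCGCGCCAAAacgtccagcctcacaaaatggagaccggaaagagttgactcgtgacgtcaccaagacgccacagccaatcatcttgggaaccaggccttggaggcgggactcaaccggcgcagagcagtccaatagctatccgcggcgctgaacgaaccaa
Mcm6: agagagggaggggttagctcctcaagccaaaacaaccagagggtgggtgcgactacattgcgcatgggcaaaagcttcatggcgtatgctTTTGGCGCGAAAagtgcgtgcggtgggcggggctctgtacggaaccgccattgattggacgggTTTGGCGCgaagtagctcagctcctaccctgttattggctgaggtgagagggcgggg
These lie at chr9:65890123-65890332 (plus strand), chr11:98907951-98908160 (plus), chr8:75109309-75109518 (plus) and chr1:128359696-128359905 (minus) in that order. The word begins 5 bases before the start in *Pclaf* and 138 bases before it in *Cdc6*. *Mcm5* holds 2 overlapping words on opposite strands, at 153 and 149 bases before the start, and *Mcm6* holds such a pair at 110 and 106 bases and a single word at 47. A word was also found for 8 of 25 fork genes and 7 of 19 G1/S regulators with a window, for 1 of the 5 second-sum genes (*Cdk1*), for 2 of 43 G2/M genes and for none of 24 activation or 23 glycolysis genes. These are matches of letters in a window, not sites shown to be bound.

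Genes that fire loaded origins stood higher too, with a median log2 ratio of 1.20 in WT and 0.91 in KO and 7 of 14 genes at least 2-fold higher in each library. *Cdc45*, which completes the active helicase, stood at 60.4 CPM against 10.6 in WT (log2 2.51) and 44.1 against 12.6 in KO (log2 1.81). *Mcm10*, which acts with it when forks start, stood at 32.5 against 2.64 in WT and 21.8 against 4.49 in KO. The GINS subunit *Gins2* stood at 124 against 44.2 in WT and 120 against 52.4 in KO. *Donson*, which helps assemble the helicase, had the lowest ratio of the list in WT, at log2 0.43, and stood at 0.32 in KO.

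Of 30 genes of the replication fork, 15 in WT and 10 in KO were at least 2-fold higher, with median log2 ratios of 1.00 and 0.75. *Clspn*, which carries the checkpoint signal at the fork, stood at 46.5 against 2.92 in WT (log2 3.99) and 48.4 against 6.71 in KO (log2 2.85). *Pcna*, the sliding clamp of the polymerases, stood at 208 against 97.4 in WT (log2 1.09, 0.98 to 1.21) and 162 against 95.5 in KO (log2 0.76, 0.63 to 0.89). DNA ligase 1 (*Lig1*), which seals the lagging strand, stood at 181 against 55.4 in WT and 172 against 78.2 in KO. Over licensing, firing and fork genes together, 55 of 60 genes in WT and 56 of 60 in KO had intervals wholly above 0, against 15.1% and 13.2% of all genes tested. The polymerase delta subunit *Pold4* was the 1 gene in each library with an interval wholly below 0, at a log2 ratio of −0.32 in both. *Pole4* had log2 ratios of 0.17 and 0.16.

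**Figure D2:**
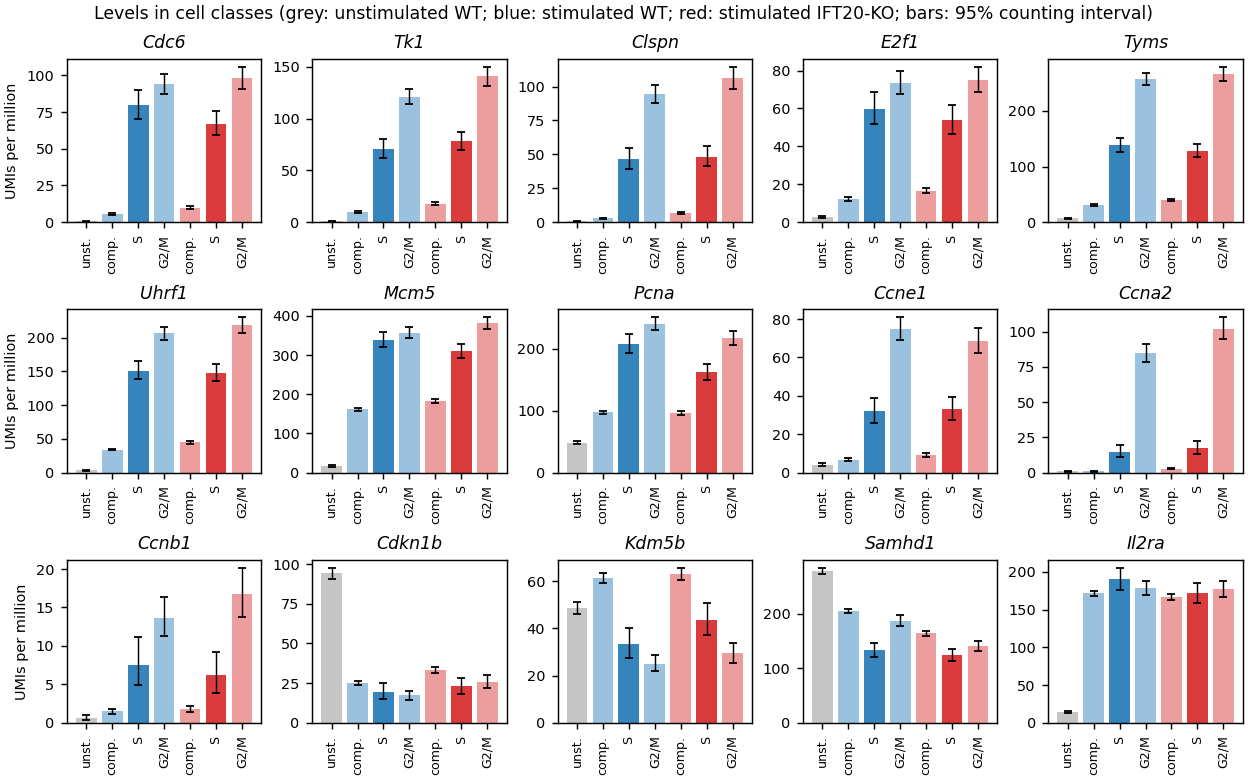
CPM (UMIs per 1000000, linear y axis from 0) of 15 genes in unstimulated cells and in the comparison, S-phase gene (S) and G2/M-gene cells of the stimulated WT and IFT20-KO libraries, with exact 95% Poisson intervals as bars. *Cdc6* stood at 0.669 in unstimulated cells and at 5.45, 79.9 and 93.8 in the WT groups, whereas *Samhd1* went from 279 in unstimulated to 206 in comparison and 133 in S-phase gene cells of WT.

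The 30 genes of nucleotide supply had a median log2 ratio of 0.25 in each library, with 20 intervals in WT and 23 in KO wholly above 0 (15.1% and 13.2% of all genes tested) and 6 and 5 genes at least 2-fold higher. Thymidine kinase 1 (*Tk1*), which salvages thymidine, stood at 70.5 CPM against 9.88 in WT (log2 2.83, 2.61 to 3.06) and 77.9 against 17.8 in KO (log2 2.13, 1.93 to 2.33). Thymidylate synthase (*Tyms*) stood at 138 against 30.6 in WT and 128 against 39.3 in KO. The dUTPase *Dut*, the most abundant of these in S-phase gene cells, stood at 536 against 239 and 500 against 265. *Rrm1*, the large reductase subunit, had log2 ratios of 1.48 and 1.23. The purine enzyme *Impdh2* stood close to its comparison level, with log2 ratios of 0.19 and 0.24. *Samhd1*, which breaks deoxynucleotides down, was lower. It stood at 279 in unstimulated cells, 206 in WT comparison cells and 133 in WT S-phase gene cells (log2 −0.63, −0.77 to −0.49), and at 164 and 125 in KO (log2 −0.40, −0.54 to −0.26). *Rrm2b*, the reductase subunit that p53 controls, had log2 ratios of −0.49 and −0.61 with intervals that reached or spanned 0.

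Regulators of the G1/S step had median log2 ratios of 0.79 in WT and 0.59 in KO, with 10 and 9 of 24 genes at least 2-fold higher. *E2f1*, the activating E2F, stood at 59.8 against 12.1 in WT (log2 2.30, 2.07 to 2.53) and 53.8 against 16.5 in KO (log2 1.71, 1.47 to 1.94). Cyclin E1 (*Ccne1*), which drives the step with Cdk2, stood at 31.9 against 6.75 in WT and 33.1 against 9.17 in KO. The repressor *E2f8* had log2 ratios of 4.58 and 3.1, which rested on 10 UMIs in WT and 25 in KO S-phase gene cells. *Zfp367*, a zinc finger factor, stood at 54.4 against 12.8 in WT and 51.9 against 18.3 in KO. Cyclin D2 (*Ccnd2*), induced in G1, stood close in both kinds of cells, at 956 against 904 in WT and 847 against 850 in KO. *Cdk4* stood at 469 against 366 and 467 against 380. *E2f1* and *Ccne1* were thus several-fold higher and *Ccnd2* and *Cdk4* little or not.

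Inhibitors of the cyclin-dependent kinases and related brakes had medians of −0.33 and −0.27 over 11 genes. The KO median turned to 0.16 in UMIs per cell, and the WT median reached 0.23 among the alternatives run. *Cdkn1b*, the inhibitor p27, stood at 94.2 in unstimulated cells, 24.9 in WT comparison cells and 19.7 in WT S-phase gene cells (log2 −0.33, −0.72 to 0.02), and at 33.1 and 23.1 in KO (log2 −0.52, −0.85 to −0.20). *Cdkn1a*, the inhibitor p21, stood at 101 against 105 in WT (log2 −0.05, −0.21 to 0.11) and at 74.7 against 113 in KO (log2 −0.59, −0.77 to −0.42). *Ccng2*, a cyclin of resting cells, was lowest at log2 −1.51 and −0.97, and *Cdkn2c* was higher at 1.01 and 1.53.

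Genes that copy chromatin along with DNA were higher. In the chromatin assembly list 10 of 27 genes in WT and 8 in KO were at least 2-fold higher, with medians of 0.73 and 0.65. *Asf1b*, a histone chaperone, stood at 61.7 against 13.2 in WT and 53 against 16.1 in KO. *Uhrf1*, which brings the maintenance methyltransferase to new DNA, stood at 151 against 34.2 and 148 against 44.9, and the methyltransferase *Dnmt1* had log2 ratios of 0.90 and 0.68. *Chaf1a*, of the chromatin assembly factor CAF-1, stood at 69.9 against 17.8 in WT and 62.9 against 22.1 in KO. The histone variant *H2afz* stood at 1544 against 788 in WT and 1527 against 882 in KO. Cohesin genes had medians of 0.24 and 0.16. Of 12 intervals, 6 in WT and 4 in KO lay wholly above 0 (15.1% and 13.2% of all genes tested) and 1 in each wholly below. Past 2-fold was 1 of 12 (6.8% and 4.89% of all genes), the cohesin protector *Cdca5* at log2 3.6 and 2.21. Of 67 clustered histone genes 36 had enough UMIs, with medians of 1.20 in WT and 0.59 in KO and summed levels of 214 against 123 and 252 against 194. Most of their transcripts are known to lack the poly(A) tail that the assay primes on, and near-identical copies can share reads, so single histone genes are uncertain.

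DNA repair genes, most of them of homologous recombination, had medians of 1.45 in WT and 1.18 in KO and 21 and 19 of 31 genes at least 2-fold higher. *Exo1*, which trims DNA ends, stood at 31.0 against 3.29 in WT (log2 3.24, 2.88 to 3.59) and 30.6 against 4.98 in KO (log2 2.62, 2.27 to 2.97), and *Brca1* had log2 ratios of 2.70 and 1.84.

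**Figure D3:**
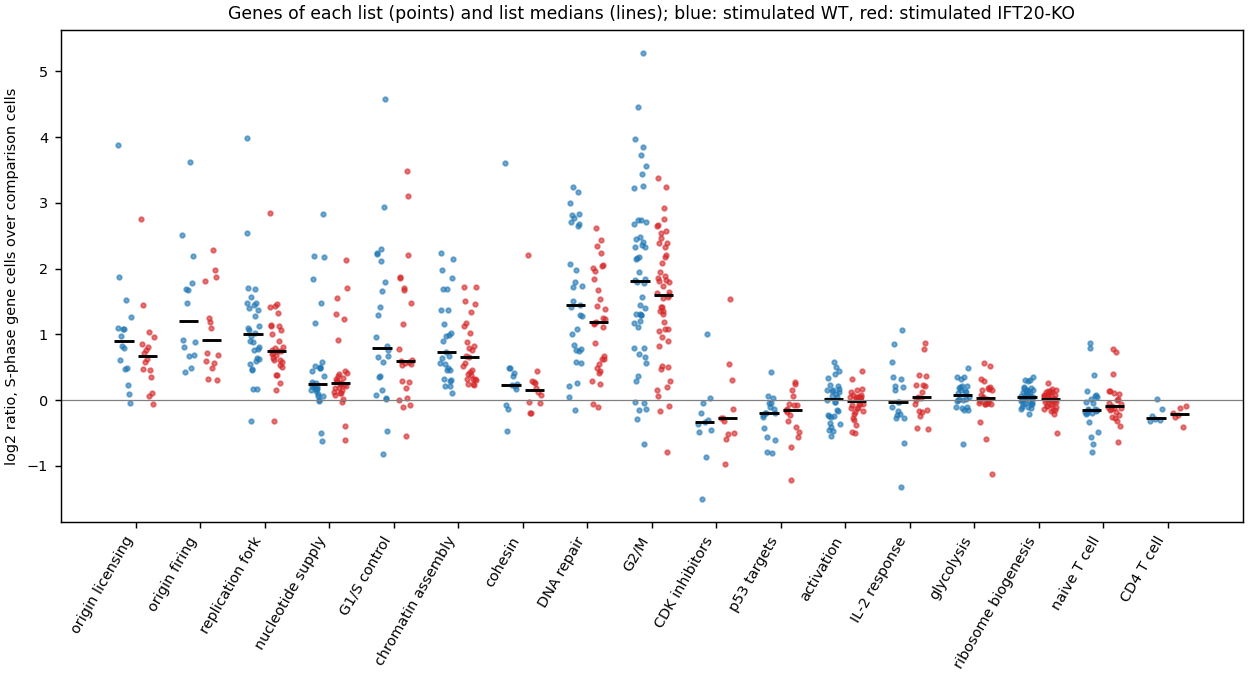
Log2 ratio of S-phase gene cells over comparison cells for each gene (points) of 17 gene lists in WT (blue) and KO (red), with the median of each list as a black line. Replication, repair and G2/M lists lie above 0, with repair medians of 1.45 and 1.18, and activation and glycolysis lists lie around 0.

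The label of S-phase entry was checked against genes that the rule did not use. Licensing, firing and fork genes were higher, but genes of G2 and mitosis outside the rule were also higher than in comparison cells. Of 50 such genes in WT and 49 in KO, 37 and 36 were at least 2-fold higher, with medians of 1.81 and 1.6. The rule sets part of this difference, since comparison cells had a second sum of 0 and S-phase gene cells up to 4. In S-phase gene cells whose second sum was also 0, the list summed to 1306 CPM in WT and 1215 in KO. The sums were 1082 and 1070 in comparison cells and 1558 and 1519 in all S-phase gene cells. A sum leans on the most abundant gene of the list, *Tubb4b*, and cannot be read as the median ratio. With the rule applied to thinned counts the median log2 ratios were 2.89 and 2.66. Over all alternatives run, a second sum of 0 among them, they lay between 1.00 and 2.89 in WT and 0.48 and 2.66 in KO. Cyclin A2 (*Ccna2*), which acts in S phase and G2, stood at 14.9 CPM against 0.953 in WT (log2 3.97, 3.39 to 4.53) and 17.5 against 2.76 in KO (log2 2.66, 2.19 to 3.12). *Spc24*, a kinetochore protein, stood at 62.3 against 6.26 in WT and 64.0 against 8.85 in KO. *Stmn1*, which loosens microtubules, stood at 382 against 105 and 455 against 165, and *Pbk*, a mitotic kinase, at 16.1 against 0.413 and 15.6 against 1.65. Cyclin B1 (*Ccnb1*) stood at 7.59 against 1.51 and 6.18 against 1.76, *Psrc1* was lower at log2 −0.67 and −0.80, and *Tubb4b* had −0.14 and −0.08. DNA content was not measured, so the cells are named by their genes and not by a moment of the cycle.

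S-phase gene cells were lower than G2/M-gene cells in most replication genes, by less than in mitotic ones. Of the 60 replication genes, 35 in WT and 42 in KO had intervals wholly below 0, against 9.33% and 9.81% of all genes tested, and none wholly above, against 5.3% and 4.43%. The rule sets part of the mitotic difference, since it caps the second sum in one group and asks for 5 or more in the other. Relative to G2/M-gene cells, the median log2 ratio in S-phase gene cells was −0.05 in WT and −0.26 in KO for licensing, −0.33 and −0.38 for firing and −0.23 and −0.34 for the fork. It was −0.44 and −0.57 for G1/S regulators and −0.40 and −0.45 for repair, but −0.76 and −0.88 for clustered histones and −1.15 and −1.38 for G2/M genes outside the rule. Across all genes, 104 of 10488 in WT (0.992%) were at least 2-fold higher than in G2/M-gene cells and 503 (4.8%) lower, and in KO 102 of 10405 (0.98%) and 409 (3.93%). At 50 CPM or more, 2 of 2916 genes in WT (0.0686%) and 0 of 2909 in KO (0%) were 2-fold higher and 8 (0.274%) and 12 (0.413%) lower. *Ccna2* was 84.8 and 102 in the G2/M-gene cells of WT and KO, several times its level in S-phase gene cells, whereas *Mcm5* was 357 and 381. *Ccne1*, at 74.9 and 68.5, was also higher there. The summed level of licensing genes was 414 CPM in unstimulated cells and 1534, 2926 and 3204 in WT comparison, S-phase gene and G2/M-gene cells. In KO it was 1753, 2857 and 3347. In each of these lists the S-phase gene cells thus lay between comparison and G2/M-gene cells.

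Levels also moved within the S-phase gene cells along the second sum, which the rule used as a limit. In WT, *Cdc6* stood at 47.2 CPM in the 22 cells with a second sum of 0, at 80.2 in the 65 cells with 1 to 2 and at 87.5 in the 78 cells with 3 to 4. In KO it stood at 28.6, 64.4 and 85.2 in 44, 103 and 93 cells. *Mcm5* went from 226 to 366 in WT and from 225 to 341 in KO, and *Ccna2* from 2.5 to 19.2 and from 5.0 to 26.2. *Cdkn1a* went the other way in WT, from 159 (122 to 203) to 83.3 (70.1 to 98.4), and had no such order in KO at 85.7, 61.3 and 84.5. Depth went with the second sum, with median UMIs of 17582, 18018 and 20841.5 in WT and 11638.5, 15098 and 15352 in KO, and its part was not tested. Even the cells with a second sum of 0 held more *Cdc6* than the comparison cells, at 5.45 and 9.96.

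**Figure D4:**
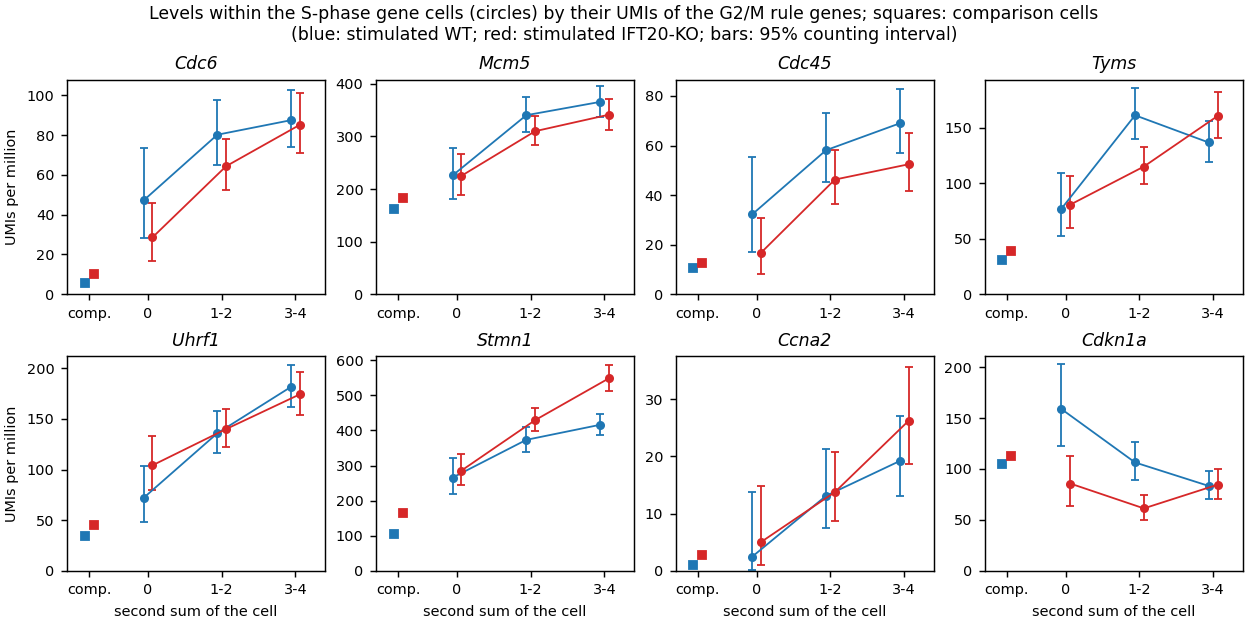
CPM of 8 genes in S-phase gene cells by second sum (0, 1 to 2, 3 to 4 UMIs, x axis) in WT (blue) and KO (red), with comparison cells as squares and exact 95% Poisson intervals as bars. *Ccna2* and *Stmn1* are higher at higher second sums in both libraries, and *Cdkn1a* is lower at higher second sums in WT, from 159 to 83.3.

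The lowest genes relative to comparison cells were fewer and moved less. *Kdm5b*, a histone demethylase, had the lowest mean ratio among genes at 50 or more CPM in S-phase gene or comparison cells. It stood at 33.4 against 61.4 in WT (log2 −0.88, −1.16 to −0.60) and 43.5 against 63.1 in KO (log2 −0.54, −0.78 to −0.31). It passed the limit in the comparison cells alone, as *Slfn1* did. *Slfn1*, a schlafen family gene linked to T cell quiescence, stood at 240 in unstimulated cells, 78.7 in WT comparison cells and 45.9 in WT S-phase gene cells, and at 56.7 and 41.4 in KO. The apoptosis-related kinase *Stk17b* stood at 326 in unstimulated cells and at 84.7 against 134 in WT and 94.3 against 132 in KO. *Pink1* had log2 ratios of −0.79 and −0.37, *Glipr1* −0.82 and −0.30, *S100a11* −0.60 and −0.45, *Hcst* −0.52 and −0.50, *Zfp36* −0.63 and −0.35 and *Gpr171* −0.71 and −0.26. The mean ratio of *Kdm5b* turned to 0.0058 with a second sum of 0, and that of *Gpr171* to 0.12 with the rule on thinned counts and 0.0049 in UMIs per cell. *Slfn1*, *Stk17b*, *Zfp36* (262) and *Hcst* (476) were highest in the unstimulated library, as *Samhd1* was, while *Glipr1* (51.0) and *Gpr171* (21.6) were higher in the stimulated comparison cells than there.

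Activation genes went both ways by small amounts. Of 30 genes, 8 in WT and 3 in KO had intervals wholly above 0 and 10 and 8 wholly below, against 15.1% and 13.2% above and 7.69% and 6.69% below among all genes tested, with medians of 0.02 and −0.02. None was 2-fold higher or lower, against 6.8% and 4.89% of all genes tested that were 2-fold higher and 2.63% and 2.31% that were 2-fold lower. *Tfrc*, the transferrin receptor, had log2 ratios of 0.44 and 0.45, *Il2ra* 0.15 and 0.05, *Myc* −0.24 and −0.12 and the early marker *Cd69* −0.46 and −0.49. Glycolysis genes had medians of 0.08 and 0.02, with lactate dehydrogenase (*Ldha*) at 0.15 and 0.30 and the glucose transporter *Slc2a1* at −0.15 and −0.06. Ribosome biogenesis genes had medians of 0.05 and 0.02, with *Npm1* at 0.15 and 0.11. Genes of the naïve state had medians of −0.15 and −0.10, with *Tcf7* at −0.15 and −0.39. Ribosomal protein genes (−0.10 and −0.07) and mitochondrially encoded genes (−0.02 and 0.05) moved little on the CPM scale. In UMIs per cell the ribosomal protein medians turned to 0.45 and 0.36.

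CD4+ T cell markers were present and somewhat lower on the CPM scale. Intervals lay wholly below 0 for 5 of 6 genes in WT and 4 of 6 in KO, against 7.69% and 6.69% of all genes tested. In UMIs per cell the median log2 ratios of these markers turned to 0.28 in WT and 0.23 in KO. The summed level of 6 T cell genes was 2691 CPM in WT S-phase gene cells against 3221 in comparison cells, and 2798 against 3262 in KO, with *Cd3e* at log2 −0.24 and −0.25 and *Cd4* at 0.02 and −0.13. Of 9 B cell genes, 5 in WT and 3 in KO were at 0 in S-phase gene cells, *Ms4a1* among them in both. The sum was 165 against 189 and 189 against 205, with *Ighm*, at 119 and 143 in the S-phase gene cells, the most abundant. The CD8 genes summed to 11.5 against 8.46 in WT and 17.7 against 10.3 in KO, with *Cd8b1* the more abundant. The 6 natural killer and γδ T cell genes summed to 5.47 against 5.40 and 5.11 against 7.52, with *Klrb1c*, *Ncr1* and *Tcrg-C1* at 0. Of 8 myeloid genes 5 and 7 were at 0, with sums of 73.8 against 76.1 and 75.5 against 80.6 that were nearly all *Cst3*. Regulatory T cell genes summed to 3.34 and 4.84, and 5 of 5 erythroid genes were at 0. A gene at 0 UMIs could stand at up to 0.911 CPM in WT S-phase gene cells and 0.806 in KO.

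*Ift20* was read first in the comparison of the 2 libraries, as a check of their labels. It stood at 56.8 CPM in WT S-phase gene cells (49.0 to 65.5) and 6.18 in KO (3.92 to 9.28), a log2 ratio of −3.20 (−3.89 to −2.57), and at 80.6 and 6.87 in comparison cells, a log2 ratio of −3.55 (−3.74 to −3.37). Unstimulated WT cells held 62.7. Within WT it was lower in S-phase gene cells than in comparison cells, at log2 −0.50 (−0.72 to −0.29), and in KO the interval spanned 0. In UMIs per cell the WT ratio was 0.04. Both kinds of cells in the KO library thus lacked most of the transcript. Counts are per gene and do not say which exons the remaining UMIs cover.

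Replication genes differed little between KO and WT S-phase gene cells on the CPM scale. Across all genes, 285 of 9868 (2.89%) were at least 2-fold higher in KO S-phase gene cells and 163 (1.65%) lower, and in comparison cells 269 of 12397 (2.17%) and 232 (1.87%). Over the 60 licensing, firing and fork genes the median log2 ratio of KO over WT was −0.07 in S-phase gene cells, with 1 interval wholly above 0 and 8 wholly below, against 6.35% and 6.87% of all genes tested. In comparison cells it was 0.21, with 40 above and 4 below, against 22.7% and 14.5%. In UMIs per cell, without scaling to the total, the medians were −0.43 and −0.05, so the direction in comparison cells turns with the scaling. The all-gene medians on the CPM scale were 0.01 and 0.04 and were not subtracted. Repair genes had 0.03 in S-phase gene cells against 0.32 in comparison cells, G2/M genes 0.20 against 0.41, clustered histones 0.31 against 0.67 and chromatin assembly genes 0.00 against 0.16. On the CPM scale, the smaller ratios of S-phase gene to comparison cells in KO, seen in each of these lists, went with higher levels in the KO comparison cells. Lists other than replication were not compared between KO and WT in UMIs per cell. With cells thinned to equal depth, the G2/M medians over comparison cells were 1.42 in WT and 1.41 in KO. Those of replication genes were 0.98 and 0.81 and those of repair genes 1.69 and 1.16. Single replication genes that were lower in KO S-phase gene cells included *Mcm10* (log2 −0.58, −1.01 to −0.15), *Cdc45* (−0.46) and *Pcna* (−0.36, −0.52 to −0.20).

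The genes given next had the largest differences between KO and WT S-phase gene cells among genes at 50 CPM or more in either library, and genes below that level differed by more. Besides *Ift20*, *Ly6a*, the surface antigen Sca-1, stood at 293 in WT and 30.4 in KO (log2 −3.27, −3.56 to −2.99). *Irf8*, an interferon regulatory factor, stood at 77.2 and 23.6 (log2 −1.71), the chemokine *Ccl3* at 89.0 and 32.5 (log2 −1.45) and lymphotoxin α (*Lta*) at 285 and 116 (log2 −1.29, −1.46 to −1.13). Higher in KO were *Nrn1*, neuritin, at 124 against 56.5 (log2 1.14, 0.89 to 1.39), the splicing regulator *Mbnl1* (0.83), the epoxide hydrolase *Ephx1* (0.68), creatine kinase B (*Ckb*, 0.66) and *Marcksl1* (0.66). In comparison cells *Ly6a* had a log2 ratio of −2.79, *Irf8* −1.29, *Ccl3* −0.59, *Lta* −0.46, *Nrn1* 0.79, *Mbnl1* 0.75, *Ephx1* 0.31, *Ckb* 0.68 and *Marcksl1* 0.76. All 10 genes went the same way in both kinds of cells and in the 6 alternatives run for S-phase gene cells, but several sizes moved. The 10 were picked for their ratios in these same libraries and cells, so the shared direction is no separate evidence. Among those lower in KO, *Ift20*, *Ly6a*, *Irf8* and *Ccl3* passed the 50 CPM limit in WT alone. *Lta* ranged from −1.69 to −0.18, *Ccl3* from −1.82 to −0.18, *Irf8* from −2.07 to −0.64 and *Ly6a* from −4.32 to −3.11, and the first 3 were smallest with a second sum of 0. *Nrn1* ranged from 0.78 to 1.73, *Mbnl1* from 0.46 to 1.17, *Ephx1* from 0.32 to 1.12, *Ckb* from 0.30 to 0.88 and *Marcksl1* from 0.26 to 2.19. Activation genes had KO over WT medians of −0.14 and −0.16 and glycolysis genes −0.12 and −0.14 in S-phase gene and comparison cells.

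**Figure D5:**
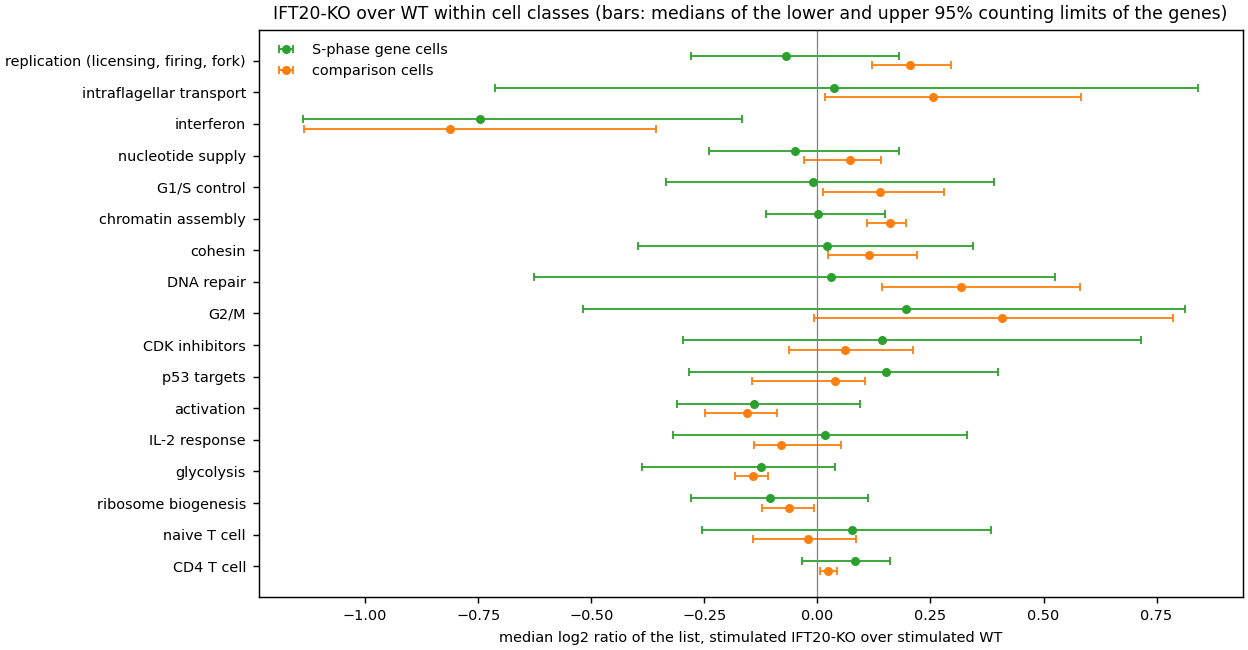
Median log2 ratio of KO over WT for each gene list in S-phase gene cells (green) and comparison cells (orange), with bars from the median of the genes' lower 95% limits to the median of their upper limits. Replication genes lie at −0.07 and 0.21, and interferon-induced genes lie below 0 in both, at −0.75 and −0.81.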

How the data were processed

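The authors deposited 1 matrix of UMI counts per library, made with Cell Ranger (3.1.0 in the matrix headers) on mm10 and holding 31053 genes. The labels name a 5′ kit and the study's methods a 3′ kit, which was not settled here. The unstimulated, the stimulated WT and the KO library held 8253, 10320 and 13932 barcodes with 37325332, 117734032 and 106459650 UMIs, of which 5263, 7602 and 7244 barcodes passed the minimum of 4056 UMIs and the 15% mitochondrial limit. The filter of the study, more than 200 genes and under 15% mitochondrial UMIs, was an alternative. No doublet caller was run, and leaving out the deepest 5 percent of cells was an alternative.

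UMIs were summed over the cells of each group and divided by the group's total. A log2 ratio was computed for genes with 10 or more UMIs over both groups, with an exact binomial 95% interval. A gene at 0 was set to a floor of 3 UMIs, levels have exact Poisson intervals and shares exact Clopper-Pearson intervals. Genes of the rule were left out of all gene counts. "2-fold" means a log2 ratio of 1 or more either way. With 1 library per group no p-value was computed. The log2 ratio, its interval and the 2-fold call were checked on simulated Poisson counts with known ratios. The choice of cells, the thinning and the clumping of UMIs within cells were not simulated. Python 3.11.15, numpy 2.4.6, scipy 1.17.1, pandas 2.3.3 and matplotlib 3.10.9 were used, and promoter windows came from RefSeq (GRCm38.p6).

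The rule, the gene lists and the named genes were chosen with earlier results of these data known. Named genes were the 8 genes of the rule, *Ift20*, the 10 highest and 10 lowest mean log2 ratios at 50 or more CPM, up to 4 genes per list (the highest, the lowest and the most abundant), and the 5 highest and 5 lowest KO over WT ratios within S-phase gene cells. T cell receptor and immunoglobulin segments were left out of the ranked genes, and some genes that the rule names are not reported here. Genes named beyond these, such as *Mcm5*, *Pcna*, *Lig1*, *Ccna2*, *Cdkn1a* and *Il2*, were picked for their known roles after their values were seen.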

Additional observations from a re-analysis of the deposited data

Results flagged for a closer look

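Among 514 named or listed genes, 1 moved in opposite directions in the 2 libraries with intervals on either side of 0. *Pim2*, a kinase that cytokine signals induce, stood at 148 CPM in WT S-phase gene cells against 172 in comparison cells, a log2 ratio of −0.22 (−0.35 to −0.09). In KO it stood at 184 against 158, a log2 ratio of 0.22 (0.11 to 0.34). In G2/M-gene cells it stood at 180 in WT and 187 in KO, and in unstimulated cells at 40.7. The difference between the libraries was not tested, since each is a single library. The same count was not made over all genes, and how many such genes counting error alone would give was not tested. *Pim2* was not among the single genes read under the alternatives below.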

How the results depend on the processing

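The share of S-phase gene cells followed the thresholds. In WT, 2.17% became 4.47% with a first sum of 2 or more, 1.04% with 5 or more, 1.14% with a second sum under 3, 0.289% with a second sum of 0, 1.04% without *Rrm2*, 1.18% without *Pclaf* and 1.80% with no UMI minimum. In KO, 3.31% became 7.99%, 1.20%, 2.03%, 0.607%, 1.42%, 1.5% and 2.31% in the same order, and 2.53% on thinned counts. The unstimulated share became 0 with a second sum of 0 or without *Pclaf*. The other 16 of 33 shares moved by less than their interval. Of the gene counts, 60 of 76 stayed within 1.5 times. The genes 2-fold higher went from 811 in WT and 562 in KO to 2047 and 1297 in UMIs per cell, 1311 and 1207 at 1 UMI per gene, 186 and 109 at 200 UMIs, and 1225 and 1089 with the rule on thinned counts (an alternative chosen after seeing the data). In KO they were 369 with a first sum of 2 or more and 853 without *Rrm2*. The genes 2-fold lower went from 313 and 266 to 123 and 111 in UMIs per cell, 85 and 28 at 200 UMIs, and 584 and 489 with a second sum of 0. The KO over WT median of replication genes went to −0.43 in S-phase gene cells and to −0.050 in comparison cells in UMIs per cell, where each value also holds the difference in total UMIs. Of 1040 list medians, 94 had the other sign than the value reported, 85 of them for lists whose band, from the median of the genes' lower 95% limits to that of their upper limits, held 0. The 9 others were those of cytokine genes in WT with a second sum of 0 (−0.081) and without *Rrm2* (−0.10), and in KO with comparison cells weighted to the depth of S-phase gene cells (−0.016) and without *Rrm2* (−0.056). In UMIs per cell they were those of T cell markers (0.28 in WT, 0.23 in KO), ribosomal protein genes (0.45 and 0.36) and kinase inhibitors in KO (0.16). Of 535 values of single genes, 367 stayed, 159 moved and 9 changed sign. These were *Kdm5b* (mean 0.0058 with a second sum of 0), *Gpr171* (0.0049 in UMIs per cell and 0.12 with the rule on thinned counts), *Ift20* in WT (0.040 in UMIs per cell), *Ccl3* in WT (−0.31 with a second sum of 0 and −0.011 with the rule on thinned counts), *Ccl3* in KO (−0.0021 with weighted comparison cells) and *Lta* in KO (−0.21 with a first sum of 5 or more and −0.20 without *Rrm2*). Other causes of these moves were not tested. The median of the 60 replication genes kept its direction in every alternative run, between 0.61 and 1.52 in WT and 0.39 and 1.17 in KO. No paired analysis was possible because each group is 1 library, and for the same reason no replicate could be left out. Depth limits genes under about 1 CPM in S-phase gene cells, where 3 UMIs is the floor.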

Other observations

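Cytokine genes went both ways between S-phase gene and comparison cells. Of 16 genes in WT, 4 were at least 2-fold higher and 3 lower, against 6.8% and 2.63% of all genes tested. The chemokine *Ccl1* was lowest at log2 −2.94. Of 13 in KO 1 was higher and 0 lower, against 4.89% and 2.31%. The median log2 ratios were 0.34 in WT and 0.14 in KO and the means 0.14 and 0.23. Both medians turned sign under alternatives, to −0.081 and −0.10 in WT and −0.016 and −0.056 in KO, and the difference between the libraries was not tested. *Il2*, the T cell growth factor, stood at 198 CPM against 105 in WT (log2 0.92, 0.80 to 1.03) and 91.4 against 63.1 in KO (log2 0.53, 0.36 to 0.70). *Lta* stood at 285 against 139 in WT and 116 against 101 in KO, *Ccl3* at 89.0 against 30.7 and 32.5 against 20.3, and the chemokine *Ccl4* at 282 against 129 and 196 against 138. Interferon-γ (*Ifng*) stood at 9.11 against 2.97 in WT and at 0 UMIs in KO S-phase gene cells, which at the floor gives a KO over WT log2 ratio of −3.50 or lower. *Tbx21*, the transcription factor of Th1 cells, stood at 19.1 in WT and 1.07 in KO, against 12.1 and 1.35 in comparison cells. With the rule applied to thinned counts, the log2 ratio of *Ccl3* in WT was −0.011, and with a second sum of 0 it was −0.31. In KO the *Ccl3* ratio was −0.0021 with comparison cells weighted to the depth of S-phase gene cells. The *Lta* ratio in KO was −0.21 with a first sum of 5 or more and −0.20 without *Rrm2*.

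Interferon-induced genes were lower in the KO library in both kinds of cells. Relative to comparison cells of the same library they went both ways, with medians of −0.10 in WT and 0.04 in KO. Of 26 genes in WT 1 was at least 2-fold higher and 3 lower, against 6.8% and 2.63% of all genes tested. Of 25 in KO the counts were 2 and 1, against 4.89% and 2.31%. The KO over WT median was −0.75 in S-phase gene cells, with 19 of 21 genes below 0, and −0.81 in comparison cells, with 26 of 28 below 0. Intervals lay wholly below 0 for 12 of the 21 and 22 of the 28 genes, against 6.87% and 14.5% of all genes tested. *Gbp2*, a guanylate-binding protein, stood at 210 in WT and 105 in KO S-phase gene cells, and *Iigp1* at 19.1 and 3.49. Intraflagellar transport genes had medians of 0.36 in WT and 0.08 in KO relative to comparison cells, with *Tsg101*, a sorting protein of the endosome, at 51.6 against 49.8 and 44.6 against 48.4. *Ift80* stood at 5.16 against 10.6 in WT and 16.9 against 16 in KO.

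The other lists moved little. Genes of the IL-2 response had medians of −0.03 and 0.04, with *Socs2* at log2 1.07 and 0.86. Targets of p53 had −0.20 and −0.14, with *Bax* at −0.25 and −0.13. Genes of the ATF4 stress response had 0.12 and 0.21, with *Asns*, asparagine synthetase, at 0.35 and 0.45. Transcription factors of helper T cell lineages had 0.18 and 0.091, with *Irf4* at −0.47 and −0.38.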
